A study of Mus musculus with 4 samples.

Results

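Transcript levels were compared between 2 expression arrays of mouse dermal fibroblasts, the main matrix-making cells of the dermis, to ask which transcripts differ when Rbpj has been deleted in the animal. The deleted array held fibroblasts of mice in which a transgene named ColI Cre was crossed to floxed Rbpj (RBP loxp-loxp), and the control array held fibroblasts with the same floxed gene and no Cre named in its labels. Both were on a C57BL/6 background. These are 2 of the 4 arrays of the series. The other two were fibroblasts given Rbpj deletion in vitro by an adenovirus with Cre (Adeno Cre) and their control given an adenovirus with GFP (Adeno GFP). Age, sex, number of animals pooled, the cells in which the transgene was active, and any time in culture between skin and RNA for the in vivo cells are not given in the sources used here. There was 1 array per group, so the differences below cannot be set against a spread between replicates, and no p-values are printed. The number of arrays limits the precision.

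The product of Rbpj, RBP-J kappa or CSL, is the protein that ties the Notch pathway to DNA. A Notch receptor that meets a ligand on a neighbouring cell is cut, and its intracellular domain moves to the nucleus, binds CSL and turns it from a repressor into an activator. Without that domain CSL sits on its sites with corepressors, so loss of CSL can lower some target genes and release others. Dermal fibroblasts build the collagen, proteoglycan and elastic fibre network of the skin and send growth factor, Wnt and cytokine signals to the epidermis above them.

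Values are log2 levels after quantile normalization, and a difference is the deleted minus the control array, so that 1 is a 2-fold excess and -1 a 2-fold deficit. A gene is represented by its brightest probe set among those assigned to a single symbol. Over the 34945 such probe sets, 577 (1.65%) exceeded the control by 2-fold or more in the deleted array and 625 (1.79%) fell short of it by as much. They represented 18193 genes, which were divided by their level in the in vitro control array. The 7277 genes at or above 7.01, the 60th percentile, are called culture-expressed, the 7277 under 5.23, the 40th percentile, are called culture-low, and 3639 lay between. The division is by level in cultured control fibroblasts and not by cell type, and it places Krt14 and Krt5, keratins of basal epidermis, among the culture-expressed genes, since that control culture read 8.43 and 8.17 for them.

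The labelled cell type was checked against markers before any other result. All 22 pan-fibroblast markers were culture-expressed, and they read high on both in vivo arrays, with a mean level of 11.7 in the control and 11.5 in the deleted array. The collagen I gene Col1a1 read 13.57 and 13.72, the surface antigen Thy1 12.51 and 12.47, and the proteoglycan gene Dcn 12.08 and 12.20 (control, deleted). Col1a1 lay near the highest deposited values of the arrays (13.74 and 13.62), which limits the change it can show. Of the 22 markers 16 were below 0 and 6 above, with a median difference of -0.14. The single member past 2-fold was Lum, at -1.06. Both arrays therefore carried the fibroblast markers, but the deleted array also read higher on average for the keratinocyte and skeletal muscle marker lists. The 30 keratinocyte markers had a mean level of 5.08 in the control and 6.66 in the deleted array, with 12 of them above 5.31 (the 40th percentile of the in vivo mean over genes) in the control and 19 in the deleted array. The 30 skeletal muscle markers had mean levels of 5.47 and 6.68, with 18 and 22 above that level. In bulk RNA, more cells of a type and more RNA per cell cannot be told apart. The part of any keratinocytes or muscle cells in the results on fibroblast genes was not tested. The in vivo arrays had a correlation of 0.982 over all probe sets. The 3' probe sets exceeded the 5' probe sets by 0.15 and 0.12 for Gapdh, 0.37 and 0.15 for Actb, 1.09 and 0.80 for Pcx, and 1.25 and 1.54 for Tfrc (control, deleted).

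**Figure D1:**
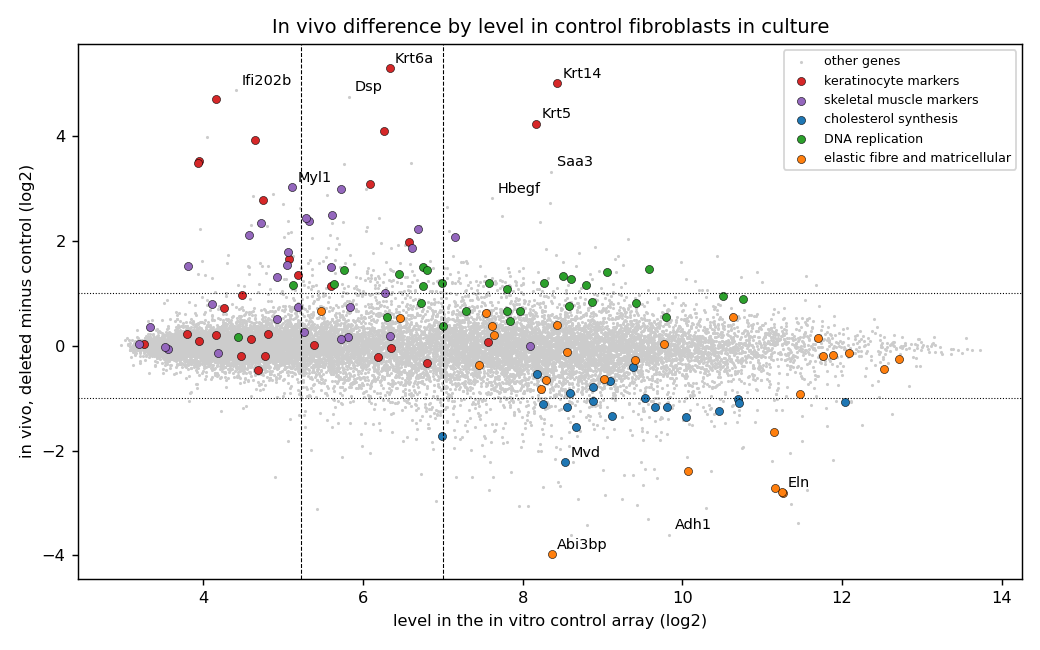
Each point is a gene, placed by its log2 level in the in vitro control array (horizontal axis) and its in vivo difference, deleted minus control, on the log2 scale (vertical axis); dashed vertical lines mark the class limits of 5.23 and 7.01, dotted horizontal lines a 2-fold difference, and colours mark 5 gene lists. Keratinocyte and muscle markers extend upward on the left and in the middle, with Krt14 and Krt5 on the right, while cholesterol synthesis genes lie below 0, all but 1 of them on the right.

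Rbpj itself had small differences in vivo. Its 3 probe sets read 7.09, 8.61 and 9.02 in the control and 6.60, 8.51 and 8.19 in the deleted array, differences of -0.49, -0.10 and -0.83. All 3 were lower in the deleted array and none by 2-fold, and the 5th percentile of the difference was -0.71 over all genes and -0.93 over culture-expressed genes. In the in vitro pair the same probe sets read 6.31, 8.58 and 8.63 in the control and 6.40, 7.48 and 7.29 in the deleted array. Where the probes lie relative to the deleted exons was not used here, and probes outside the deleted stretch would not show whether the deletion took place.

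Most genes of the Notch pathway stayed within 2-fold, as did most genes on the arrays. None of the 28 measured receptors, ligands, processing enzymes and CSL cofactors reached a 2-fold difference. Over all genes 1.87% were higher and 2.32% lower, so a count of 0 among 28 does not set this list apart. Of the 28, 17 were below 0, with a median of -0.10. The ligand Jag1 read 9.01 in the control and 9.92 in the deleted array, and the receptor Notch1 8.97 and 9.71. Psen2, a catalytic subunit of gamma-secretase, which cuts the receptor, went from 8.11 to 7.18, but its other probe set differed by 0.34. Among 17 Notch and CSL target genes, 11 were above 0 and the median was 0.16, against -0.01 over all genes. The canonical repressor genes differed little: Hes1 read 9.01 and 8.87, Hey1 5.68 and 5.99, and Hey2 was near background on both arrays (3.61 and 3.83). The members furthest from 0 were growth genes. Ccnd1, a D-type cyclin, read 8.96 in the control and 10.36 in the deleted array and was the single member past 2-fold, and Myc read 9.20 and 10.19, just under that threshold at 0.99. Heyl, a Hes-related repressor, went from 5.00, under 5.31, to 5.81.

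Among culture-expressed genes, deficits outnumbered excesses. In the deleted array 317 of 7277 were at least 2-fold lower (4.36%) and 130 at least 2-fold higher (1.79%), so that genes higher made up 29.1% of those past the threshold. The difference had a median of -0.05 and an SD over genes of 0.53. After centring on that median, 283 were lower and 153 higher, and the share higher was 35.1%. Of the 317 lower genes, 295 (93.1%) read lowest of the 4 arrays in the deleted in vivo array, against 33.5% of all culture-expressed genes. Of the 130 higher genes, 106 (81.5%) read highest of the 4 there, against 23.8%. These shares rest partly on the same in vivo values that chose the genes, and levels on in vitro and in vivo arrays differ both by system and by whatever else separated the hybridisations, which cannot be told apart. Of genes with several probe sets bright enough in vivo, 65 of 68 higher and 112 of 124 lower genes had all of those on the same side of 0.

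**Figure D2:**
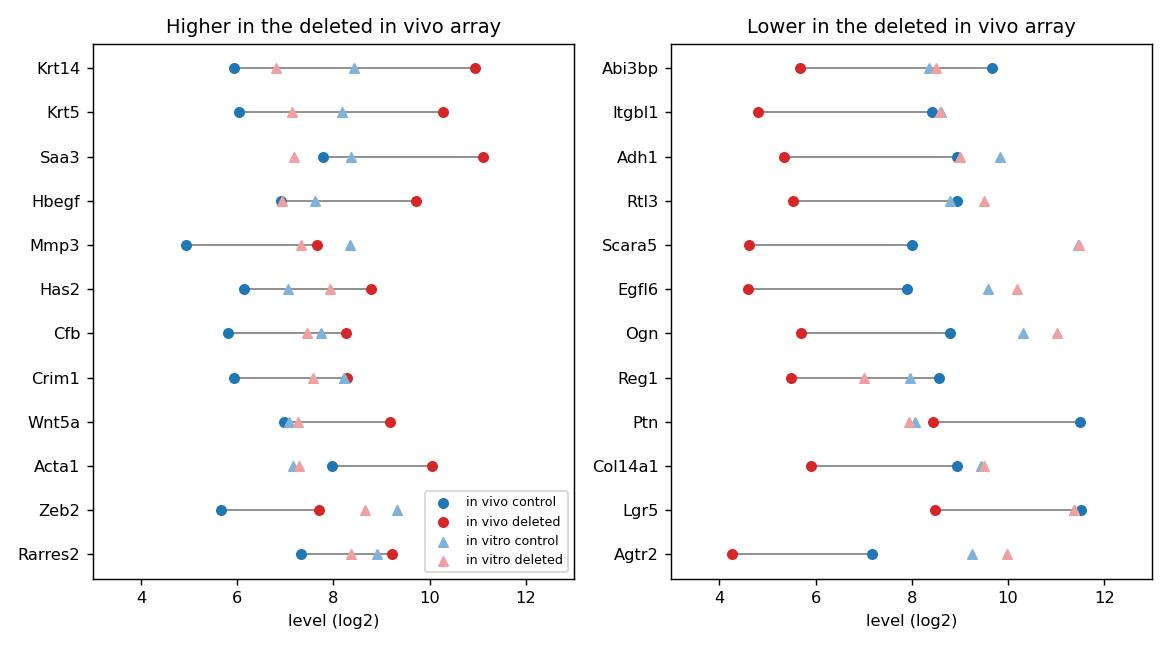
Log2 levels on the 4 arrays of the 12 culture-expressed genes with the largest excess (left) and the 12 with the largest deficit (right) in the deleted in vivo array; circles are the in vivo arrays, joined by a line, and triangles the in vitro arrays, 1 array per point. The deleted in vivo array is lowest of the 4 for every gene on the right but Ptn, where both in vitro arrays read lower.

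The deficits included many genes of the fibroblast's own matrix, while the chief collagens and most identity markers stayed within 2-fold. Abi3bp, an extracellular matrix protein, read 9.66 in the control and 5.68 in the deleted array, a 15.8-fold deficit. Itgbl1, a secreted integrin-beta-like protein, went from 8.41 to 4.80 and Egfl6, a secreted protein with EGF repeats, from 7.91 to 4.60, both to below 5.31. The small leucine-rich proteoglycan gene Ogn went from 8.79 to 5.69. Col14a1, a fibril-associated collagen, went from 8.93 to 5.90, although a dim probe set of it differed by 0.03. In 31 of the 317 lower genes the deleted signal lay under 5.31, so the size of those deficits is not exact.

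Elastic fibre and matricellular genes had 6 of 27 measured members at least 2-fold lower and none higher, with a median of -0.26. Counts for this and later lists are to be read beside the shares over genes at large. These were 4.36% lower and 1.79% higher over culture-expressed genes, and 2.32% lower and 1.87% higher over all genes. Elastin (Eln), the rubber-like core of the fibre, read 8.67 in the control and 5.87 in the deleted array, with its other probe set at -0.48. The microfibril gene Fbn2 went from 11.30 to 8.51, and the fibulin-like Efemp1 from 9.59 to 6.87. The microfibril-associated Mfap4 and Mfap2 went from 11.11 to 8.73 and from 10.64 to 8.98. Those members were all culture-expressed, and the list's in vitro median was 0.24. The control culture read 11.26 for Eln, 11.25 for Fbn2, 11.16 for Efemp1 and 11.15 for Mfap2, near or above the in vivo control, but 8.37 for Abi3bp and 10.07 for Mfap4, below it.

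Proteoglycans and glycoproteins of the matrix had 6 of 23 members lower, 1 higher and a median of -0.21 (-0.84 over the culture-expressed members). Besides Ogn, the lower members were Aspn (10.77 to 9.04), Prelp (9.84 to 8.16), Podn (9.41 to 7.81), the membrane-anchored Gpc3 (9.16 to 7.82) and Lum (10.00 to 8.94). The member that was higher was Has2, the hyaluronan synthase, which went from 6.13 to 8.78. Of 18 collagens, 3 were lower and 1 higher, with a median of -0.03. Col11a1 went from 8.97 to 6.76 and Col8a1 from 9.90 to 8.59, whereas Col5a3 went from 9.18 to 10.89, with a dim second probe set at -0.01. Col1a2 read 13.63 and 13.57, and Col3a1 13.28 and 13.12.

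Proteases and their inhibitors went both ways. The stromelysin Mmp3 read 4.94 in the control, under 5.31, and 7.66 in the deleted array, the gelatinase Mmp9 read 5.40 and 7.04, and the urokinase receptor gene Plaur read 7.51 and 8.76. On the lower side, the aggrecanase Adamts5 went from 11.02 to 9.56 and the inhibitor Timp2 from 11.74 to 10.66. In all, 3 of 21 members were higher and 4 lower. Of 22 contractile and myofibroblast genes 3 were higher, the smooth muscle actin Actg2 (7.69 to 9.42), Lrrc15 (9.09 to 10.25) and Des (6.34 to 7.85), an intermediate filament gene that is also a skeletal muscle marker. Smooth muscle actin Acta2, the usual myofibroblast marker, read 13.05 and 13.25. Of 25 markers of papillary, reticular and other dermal subtypes, 19 were below 0 and 3 at least 2-fold lower, among them Dlk1 (10.94 to 9.41), a marker of deep dermal fibroblasts, and Dpt (10.33 to 9.03), while Col23a1 was higher (6.42 to 7.77).

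**Figure D3:**
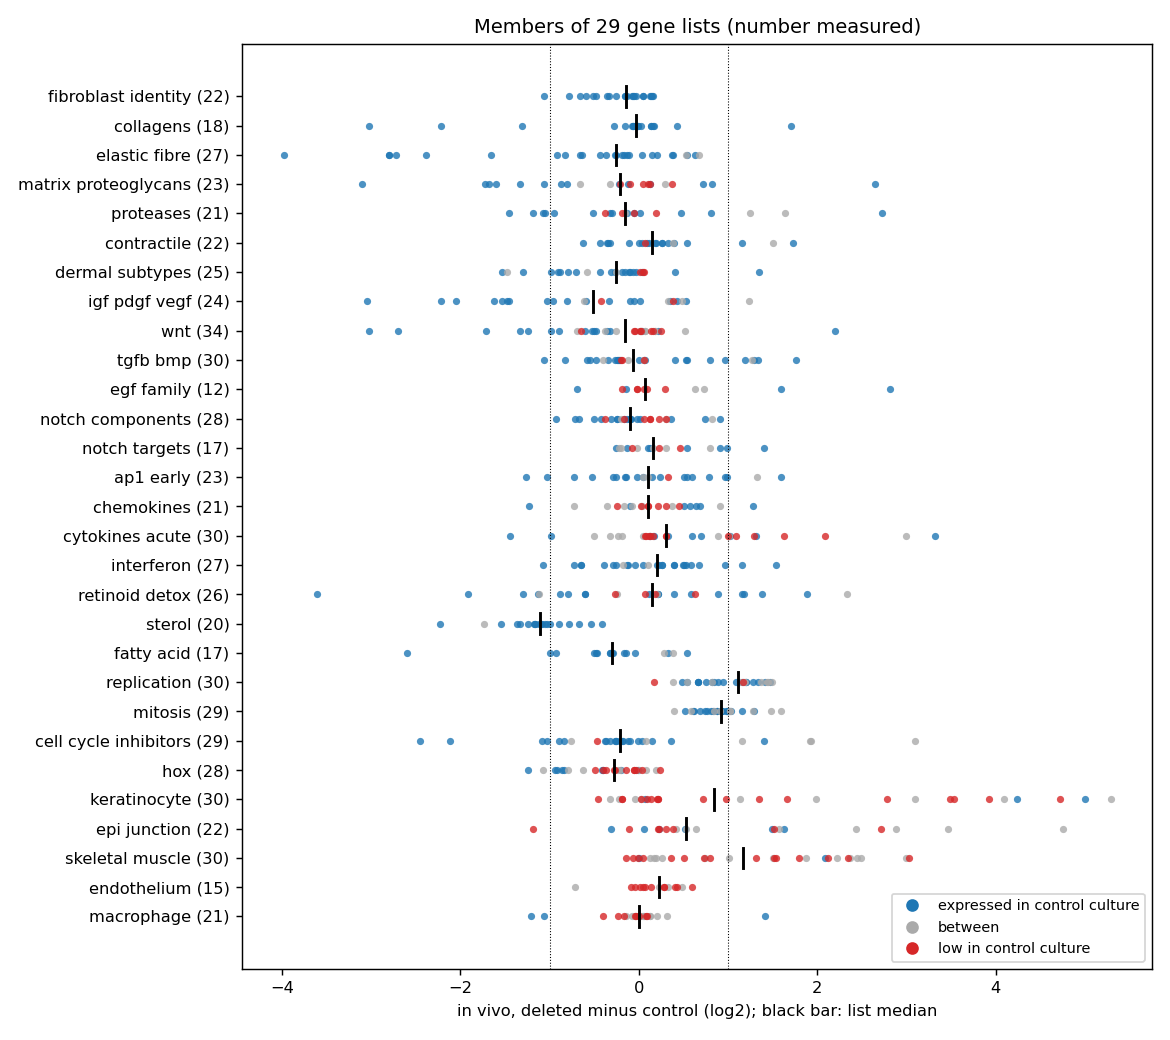
In vivo difference (log2, horizontal axis) of each measured member of 29 gene lists, with the number measured in brackets; point colour gives the class by level in the control culture, the black bar the list median, and dotted lines a 2-fold difference. Sterol genes lie below 0 in full and replication and mitosis genes above 0 in full, while the keratinocyte and muscle lists hold long tails to the right.

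Several growth factors and IGF binding proteins were lower. Of 24 ligands, receptors and binding proteins of the IGF, PDGF, VEGF and related families, 8 were at least 2-fold lower, 1 higher and 15 within 2-fold, with a median of -0.51 and -0.88 over the culture-expressed members. Insulin-like growth factor 1 (Igf1) read 8.08 in the control and 5.86 in the deleted array, and Igf2 read 12.42 and 11.39. The clearing receptor Igf2r went from 10.14 to 8.52. The binding proteins Igfbp4, Igfbp3 and Igfbp6, which hold IGF in the matrix, went from 11.72 to 10.19, from 11.21 to 9.73 and from 10.20 to 8.74. Vegfd, a lymphatic growth factor, went from 10.21 to 8.16, and pleiotrophin (Ptn), a heparin-binding growth factor, from 11.49 to 8.44. The VEGF receptor gene Flt1 was higher, at 6.94 and 8.18.

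Wnt pathway genes had 5 of 34 members lower and 1 higher, with a median of -0.15 (-0.56 over culture-expressed members). The R-spondin receptor Lgr5 read 11.51 in the control and 8.48 in the deleted array, with a dim second probe set at 0.00. The related Lgr4 went from 9.46 to 8.13 and the ligand Rspo3 from 6.28 to 4.56. The secreted antagonists Sfrp1 and Dkk3 went from 11.26 to 8.57 and from 8.64 to 7.39. Against these, the ligand Wnt5a went from 6.98 to 9.18. Both potentiators and antagonists of Wnt signalling were thus among the lower members. Of 12 hedgehog genes 10 were below 0 and 1 at least 2-fold lower, with a median of -0.18, beside 2.32% lower over all genes.

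Members of the EGF and TGF-beta families past 2-fold were mostly higher. Over all genes 1.87% were at least 2-fold higher and 2.32% lower. Hbegf, a membrane-anchored EGF receptor ligand, read 6.91 in the control and 9.72 in the deleted array, and the feedback inhibitor of the receptor, Errfi1, read 9.22 and 10.81. These were the 2 of 12 EGF family genes past 2-fold, and the list had a median of 0.07. Among 30 TGF-beta and BMP genes, 5 were higher and 1 lower, 14 lay above and 15 below 0, and the median was -0.06. Inhba, the activin A subunit, went from 9.10 to 10.86, with a dim probe set at -0.14, and the activin antagonist Fstl3 from 7.83 to 9.01. The BMP antagonist Grem1 went from 8.63 to 9.93, the inhibitory Smad7 from 8.13 to 9.46 and the ligand Tgfb2 from 5.32 to 6.59. The probe sets of Tgfb2 ranged from 0.12 to 1.26. The receptor Tgfbr2 was lower, from 11.40 to 10.35. Of 23 AP-1 and early response genes 2 were higher and 2 lower, among them Fosl1, an AP-1 subunit (7.44 to 9.04), and Klf4 (9.37 to 8.11).

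Inflammatory genes stood on the higher side by count. Of 30 cytokine and acute-phase genes 24 were above 0, 10 at least 2-fold higher and 1 lower, with a median of 0.31. Saa3, an acute-phase serum amyloid A gene, read 7.78 in the control and 11.10 in the deleted array, against 8.36 and 7.18 in the control and deleted cultures. Ptgs2, the inducible prostaglandin synthase, read 6.36 and 9.35. Haptoglobin (Hp) went from 9.42 to 10.73 and Nfkbiz, a regulator of NF-kappa B targets, from 7.38 to 8.40. Lcn2, S100a8 and S100a9 had control signals under 5.31 (4.58, 4.49 and 4.23) and read 6.66, 5.78 and 5.85 in the deleted array. Keratinocytes also make these proteins, and the part of keratinocytes in the values was not tested. The alarmin Il33 was the member that was lower, from 6.44 to 4.99.

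Chemokines and interferon genes moved less. Of 21 chemokine genes 14 were above 0, with Ccl2 (9.56 to 10.83), which recruits monocytes, higher and Cxcl12 (11.49 to 10.26) lower. Of 12 complement genes 1 was past 2-fold, Cfb, complement factor B, which went from 5.80 to 8.27. Of 27 interferon-stimulated genes 2 were higher and 1 lower, with a median of 0.20, beside 1.87% higher and 2.32% lower over all genes. Oasl2 went from 5.43 to 6.97 and the class I gene H2-D1 from 10.34 to 11.49, the latter with probe sets from -0.27 to 1.69. H2-D1 has close relatives whose transcripts its probes may share. Ifi202b, an interferon-inducible gene, had the largest difference among culture-low genes, 4.87. It read 4.02 in the in vivo control and 8.89 in the deleted array, against 4.41 and 4.08 in the control and deleted cultures. Whether that difference follows from the deletion or from another difference between the mice was not tested.

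Genes of retinoid handling and detoxification split evenly, with 5 of 26 higher and 5 lower. Adh1, an alcohol dehydrogenase that oxidises retinol, read 8.94 in the control and 5.34 in the deleted array, a 12.1-fold deficit, and the retinal reductase Dhrs3 read 7.39 and 5.47. Aldh1a3, which makes retinoic acid, was higher, at 5.11 and 7.44, and so were Cyp26b1, which breaks it down (7.27 to 8.43), and the chemerin gene Rarres2 (7.33 to 9.22). The glutathione transferases Gstm2, Gstm1 and Gstt1 went from 10.07 to 8.77, from 9.10 to 7.97 and from 6.63 to 5.51, whereas Gclc, the rate-limiting enzyme of glutathione synthesis, went from 7.56 to 8.94. Steps that make and steps that remove retinoic acid were found on both sides.

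Cholesterol synthesis genes were lower throughout. All 20 measured members of the sterol list were below 0, 15 of them at least 2-fold, and the median was -1.10, against -0.05 over culture-expressed genes and an in vitro median of -0.14 for the same list. Along the mevalonate pathway, Hmgcs1, which makes HMG-CoA, read 12.07 in the control and 10.99 in the deleted array. Pmvk went from 8.72 to 7.56, Mvd, the decarboxylase, from 9.60 to 7.37 and Idi1, the isomerase, from 10.59 to 9.23. Fdps and Fdft1, which build farnesyl diphosphate and squalene, went from 11.38 to 10.36 and from 10.43 to 9.26, with probe sets of Fdft1 from -1.52 to 0.05. Of the enzymes from squalene to cholesterol, Sqle went from 10.94 to 9.85, Lss from 10.28 to 9.22, Cyp51 from 10.18 to 9.02, Msmo1 from 10.82 to 9.58, Nsdhl from 10.23 to 8.90, Hsd17b7 from 9.43 to 7.89, Tm7sf2 from 7.81 to 6.08 and Dhcr7 from 9.62 to 8.50.

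The difference was smaller for the regulators than for most enzymes. Srebf2, the transcription factor that drives the pathway, read 10.12 and 9.71, and Insig1, its sterol-sensing brake, read 8.46 and 7.68. Mvk, Ebp and Sc5d were below 0 without reaching 2-fold (-0.89, -0.67 and -0.53), and Stard4, a cholesterol carrier, lay on the threshold (9.95 to 8.95). The in vivo control read highest of the 4 arrays for 18 of the 20 genes, and the deleted in vivo array read lowest for 14. These ranks rest partly on the same in vivo difference. Fatty acid genes differed less, with 1 of 17 past 2-fold and a median of -0.30. That gene was Acss2, which makes acetyl-CoA from acetate and is a known target of the same factors, at 8.72 and 6.12.

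**Figure D4:**
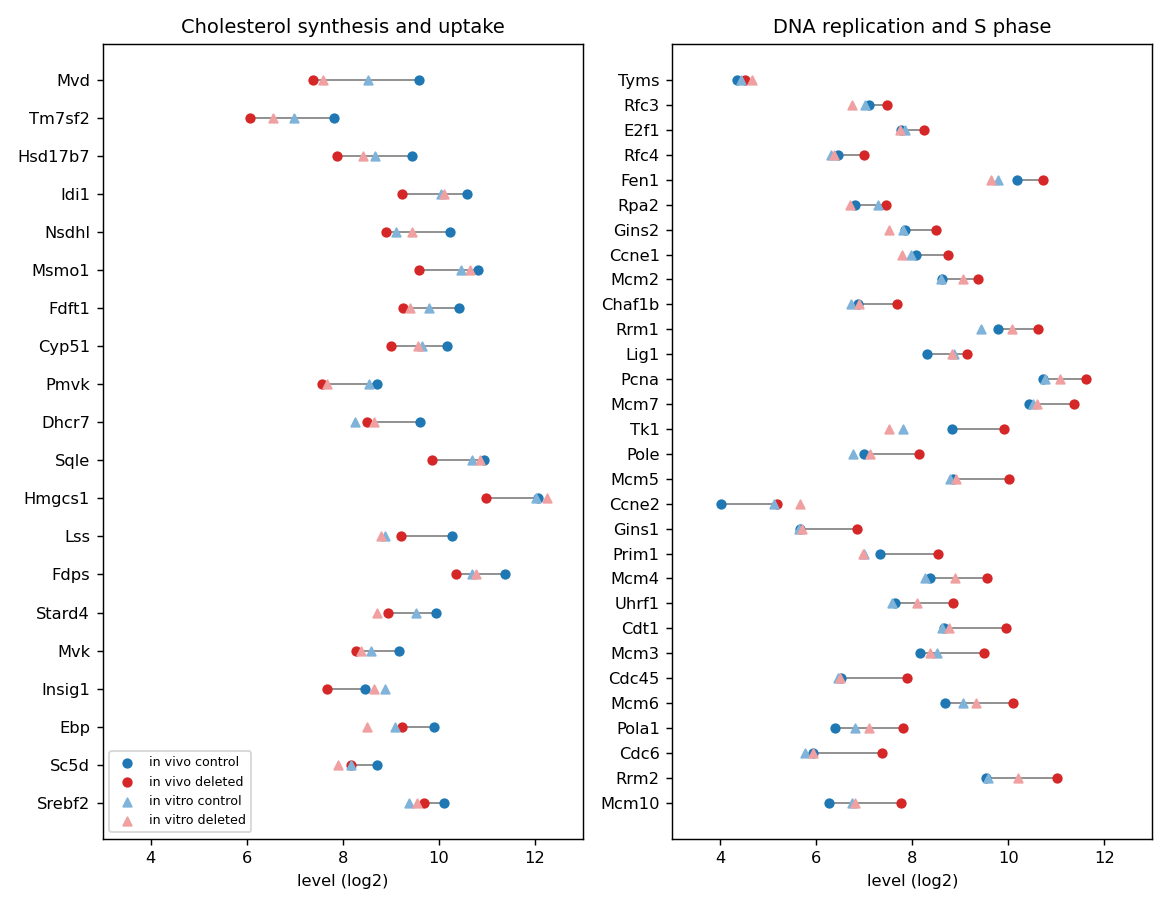
Log2 levels on the 4 arrays for the 20 cholesterol genes (left) and the 30 DNA replication genes (right), ordered by in vivo difference; circles joined by a line are the in vivo arrays and triangles the in vitro arrays, 1 array per point. The control circle is to the right of the deleted circle for all 20 genes on the left and to the left of it for all 30 on the right.

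Promoter windows are shown for 2 of the sterol genes because the members moved together. They run from 250 bases before to 50 after the start in RefSeq (GRCm38.p6), 5′ to 3′ on the gene's strand, and capitals mark the CCAAT box (CCAAT, or ATTGG on the other strand) and the sterol element (TCACNCCAC or its reverse complement, the site class bound by SREBP). The Hmgcs1 window (chr13:119690101-119690400, plus strand) held 4 CCAAT boxes and 1 sterol element. The Mvd window (chr8:122443373-122443672, minus strand) held 2 CCAAT boxes.
Hmgcs1: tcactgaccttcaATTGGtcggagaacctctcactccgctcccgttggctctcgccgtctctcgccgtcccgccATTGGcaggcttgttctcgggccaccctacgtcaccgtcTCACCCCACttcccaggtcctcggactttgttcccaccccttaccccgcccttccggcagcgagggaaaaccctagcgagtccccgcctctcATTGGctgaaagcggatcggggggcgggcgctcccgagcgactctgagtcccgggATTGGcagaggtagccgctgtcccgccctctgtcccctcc
Mvd: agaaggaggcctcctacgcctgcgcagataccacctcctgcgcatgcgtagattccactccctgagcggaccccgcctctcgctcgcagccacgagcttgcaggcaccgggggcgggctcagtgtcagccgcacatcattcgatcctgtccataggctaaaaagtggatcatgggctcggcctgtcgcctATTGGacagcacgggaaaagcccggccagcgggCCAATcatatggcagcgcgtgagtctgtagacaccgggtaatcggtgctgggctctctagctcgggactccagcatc
A CCAAT box was found in 84.2% of the 19 windows of the sterol list, 37.3% of those of culture-expressed genes and 37.4% of all windows. The sterol element was found in 5.26%, 1.13% and 1.24% of them, and the 5.26% is 1 window of 19, the Hmgcs1 window shown. Windows were found for 247 of the 317 lower and 98 of the 130 higher genes. Those of the lower genes held CCAAT in 37.7% and the sterol element in 2.41%. The CSL site (GTGGGAA, either strand) was found in 3.92% of windows of the lower genes, 4.92% of windows of the higher genes, 5.44% of windows of culture-expressed genes and 6.38% of all windows. It was found in 15.8% of the sterol windows (3 of 19), 9.68% of the replication windows (3 of 31) and 22.2% of the Notch target windows (2 of 9). The Hmgcs1 window above and the Mcm3 window below also hold a match to it, left in lower case. Motifs were searched on both strands, no capitalised match overlaps another, and a match is a description of the sequence and not of binding.

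DNA replication genes were higher throughout. All 30 measured members were above 0, 16 of these by 2-fold or more, the median was 1.11, and in vitro the median was 0.10. Among subunits of the MCM helicase, which unwinds DNA, Mcm3 read 8.15 in the control and 9.49 in the deleted array, Mcm4 8.36 and 9.55, Mcm5 8.85 and 10.00, and Mcm6 8.68 and 10.09. The loading factors Cdc6 and Cdt1 went from 5.92 to 7.36 and from 8.66 to 9.94, and Cdc45 from 6.52 to 7.89. Mcm10 went from 6.26 to 7.76. Rrm2 and Tk1, enzymes of nucleotide supply, went from 9.54 to 11.01 and from 8.83 to 9.92, and the polymerase subunit Pola1 from 6.38 to 7.81. The deleted in vivo array read highest of the 4 for 28 of the 30 genes, a rank that rests partly on the same in vivo difference.

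The Mcm3 promoter window is printed because Mcm3 is a replication gene with an exact match to the E2F site searched (TTTCCCGC or its reverse complement GCGGGAAA, in capitals). It lies on the minus strand at chr1:20820263-20820562 (GRCm38.p6).
Mcm3: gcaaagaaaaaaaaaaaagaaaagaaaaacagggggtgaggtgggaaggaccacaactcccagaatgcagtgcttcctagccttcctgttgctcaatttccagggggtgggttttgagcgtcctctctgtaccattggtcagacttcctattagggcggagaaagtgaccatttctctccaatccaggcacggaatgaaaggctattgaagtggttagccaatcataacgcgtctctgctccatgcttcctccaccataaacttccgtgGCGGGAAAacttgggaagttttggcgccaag
That site was found in 12.9% of windows of the replication list, 7.38% of windows of culture-expressed genes at least 2-fold higher, 0.301% of those at least 2-fold lower, 1.93% of those of all culture-expressed genes and 1.07% of all windows. The group of higher genes includes 13 members of the replication and mitosis lists.

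Mitosis genes were higher in the same way. All 29 were above 0 and 10 at least 2-fold higher, with a median of 0.93, and the deleted in vivo array read highest of the 4 for all 29. That rank rests partly on the same in vivo difference. The list also had a mean level of 8.16 in the in vivo control against 7.58 in the control culture. The spindle checkpoint kinase gene Ttk went from 6.26 to 7.85, with a dim probe set at 0.12, and Nek2 from 6.14 to 7.63. Aurka and Aurkb, mitotic kinases, went from 8.02 to 9.30 and from 6.52 to 7.80, Plk1 from 8.56 to 9.73 and Foxm1, a transcription factor of mitotic genes, from 7.40 to 8.42. Of 29 cell cycle inhibitors and related regulators, 5 were higher and 4 lower, with 20 below 0 and a median of -0.21. The CDK inhibitor Cdkn1c went from 9.51 to 7.05 and Cdkn2b from 9.20 to 8.17, whereas Cdkn1a (p21) read 11.15 and 10.90. The D-type cyclin Ccnd1, given above, was among the higher members, and the lamin gene Lmnb1, whose loss marks senescent cells, went from 6.63 to 8.55. Keratinocyte and muscle precursor cells can divide too, and the part of any cell type in these values was not tested.

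Glycolysis and hypoxia genes had 3 of 22 members higher, 1 lower and 17 above 0, with a median of 0.31. Hk2, a hexokinase, went from 7.84 to 9.07, Slc16a3, a lactate exporter, from 9.27 to 10.42 and Egln3 from 5.84 to 7.22, while Adm went from 10.14 to 8.96. Homeobox genes of position had 24 of 28 members below 0, 2 by 2-fold or more, with a median of -0.27 and -0.84 over the culture-expressed members. Hoxc8 read 9.66 in the control and 8.42 in the deleted array, Hoxd8 8.94 and 8.01, and Hoxc10 8.53 and 7.62. Hox levels mark the site of the body from which fibroblasts come, and no source used here gives the skin sites sampled.

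Few culture-low genes passed 2-fold. Of the 764 with an in vivo mean at or above 5.31, 41 (5.37%) were 2-fold or more above the control and 6 (0.785%) as far below it. A gene that passes that level only through the deleted array had to be higher, so this split supports no direction, and with no level filter 58 of 7277 (0.797%) were higher and 8 (0.11%) lower. In 24 of the 41 the control signal was under 5.31. The genes with the largest excess were Ifi202b and genes of activated or cornifying epidermis: Krt6b (4.72), the dermokine gene Dmkn (3.99), the cornified envelope genes Sprr1a and Sprr1b (3.93 and 3.49) and Krt16 (3.53). Myl1, a fast muscle myosin light chain, was at 3.03. The 6 lower genes were Aldoc (-2.51), Mamdc2 (-1.82), the endothelial phosphatase Ptprb (-1.32), Adam6b (-1.25), the desmosomal Pkp2 (-1.18) and Lhx8 (-1.15). Of the 41 higher genes, 7 belonged to the keratinocyte or epithelial junction lists and 7 to the muscle list, so that 27 belonged to neither. Genes between the classes that passed the level had 148 of 2932 higher (5.05%) and 81 lower (2.76%).

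Keratinocyte markers were unevenly higher. Of 30 measured, 14 were at least 2-fold higher and none lower, with a median of 0.85, beside 1.87% higher over all genes. The 30 comprised 3 culture-expressed, 9 between and 18 culture-low genes. The largest difference was that of Krt6a, a keratin of wounded and activated epidermis, which read 5.67 in the control and 10.97 in the deleted array, with probe sets from 4.11 to 6.22. Of the basal keratins, Krt14 read 5.93 in the control and 10.94 in the deleted array and Krt5 6.04 and 10.28, although the probe sets of Krt14 ranged from 0.50 to 5.01. Other keratins of activated epidermis were also higher, Krt6b at 3.84 and 8.56, Krt17 at 4.71 and 8.81 and Krt16 at 4.35 and 7.88. Genes of differentiated epidermis were divided. The cornified envelope genes Sprr1a and Sprr1b were higher, as given above, whereas Krt10 read 5.75 and 5.42, Lor 7.26 and 7.04, Krt1 4.75 and 4.55, and Flg was at background on both (3.26 and 3.28). Trp63, the master regulator of basal keratinocytes, read 5.64 and 5.19, and the adhesion gene Epcam 7.66 and 7.73, with a second probe set at 2.62.

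Genes of epithelial junctions and of the epidermal basement membrane were higher with the basal keratins. Of 22 measured, 9 were higher and 1 (Pkp2) lower, with a median of 0.53. The desmosome gene Dsp read 3.23 in the control, near background, and 7.98 in the deleted array, with probe sets from 0.39 to 4.75. The laminin chains Lama3 and Lamb3 went from 4.85 to 7.56 and from 4.16 to 7.62, the hemidesmosome collagen Col17a1 from 4.26 to 7.14 and its partner integrins Itga6 and Itgb4 from 6.01 to 7.63 and from 5.88 to 7.46. E-cadherin (Cdh1) went from 3.56 to 5.22 and remained under 5.31.

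Skeletal muscle genes were above 0 in 27 of 30 cases, 16 of these by 2-fold or more (1.87% over all genes), and their median was 1.16. The members past 2-fold included sarcomere genes of embryonic, slow and fast muscle. The fetal and cardiac actin Actc1 read 6.81 in the control and 9.80 in the deleted array, the embryonic myosin Myh3 5.42 and 7.77, and the slow troponins Tnnc1 and Tnni1 7.06 and 8.93, and 6.68 and 9.13. Skeletal actin Acta1 went from 7.97 to 10.06 and the fast genes Myl1, Mylpf and Tnnc2 from 5.85 to 8.87, from 6.53 to 9.02 and from 5.52 to 7.89. Myog, the regulator of muscle cell fusion and differentiation, was at 4.88 in the control and higher by 2.12. The muscle stem cell factor Pax7 (3.89 and 3.74), Myf5 (3.30 and 3.34) and the adult fast myosin Myh4 (4.46 and 4.39) were near background on both arrays, and the creatine kinase Ckm read 6.22 and 6.38.

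Most listed markers of blood vessels, immune cells, nerve and fat stayed within 2-fold, as did most genes (1.87% higher and 2.32% lower over all genes). None of the 15 endothelial, 9 pericyte, 14 lymphocyte and mast cell, 14 adipocyte, and 12 Schwann cell and melanocyte markers reached 2-fold. Of the 15 endothelial markers 12 were above 0, with a median of 0.23, and 4 had an in vivo mean at or above 5.31. The VEGF receptor gene Flt1 (higher) and the endothelial phosphatase Ptprb (lower), given above, were not on that list. Pecam1 read 4.85 and 4.92, Cdh5 4.25 and 4.68 and Cd3e 5.90 and 5.91. Of 21 macrophage markers 1 was higher and 2 lower, with a median of 0.00: the class II chain Cd74 went from 6.48 to 7.89 and the lysozyme Lyz2 from 7.80 to 6.73, while the pan-leukocyte gene Ptprc read 4.42 and 4.02 and Cd68 4.58 and 4.63. Pecam1, Cdh5, Ptprc and Cd68 read under 5.31 on both arrays, so a small change in such cells was not detectable. Of 15 cartilage and bone genes 3 were lower, Col11a1, Mgp (6.84 to 5.36) and Sox9 (8.16 to 7.11), and Alpl was higher (5.14 to 6.39). The 9 housekeeping genes had no member past 2-fold and a median of 0.18.

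The in vivo differences bore little relation to those of the in vitro pair. Over the culture-expressed genes the correlation across genes was 0.09, which is a description, since genes are not independent replicates and the in vitro control array also set the class. In vitro, 53 of these genes were at least 2-fold higher (0.728%) and 113 lower (1.55%). Of the 130 genes higher in vivo, 2 were also higher in vitro, which is 1.54% of the in vivo and 3.77% of the in vitro genes, and 4 were lower. Of the 317 lower in vivo, 5 were also lower in vitro (1.58% and 4.42%) and 1 was higher. The sign was shared by 61 of the 130 and by 195 of the 317, and the median in vitro difference of the latter was -0.10, where that of all culture-expressed genes was -0.08. The in vitro arrays were unlike in their 3' minus 5' values. These were 1.01 and 0.04 for Gapdh, 1.09 and 0.39 for Actb, 3.27 and 1.94 for Pcx, and 0.93 and 1.47 for Tfrc (control, deleted). The part of RNA quality in the in vitro differences and in the classes was not tested.

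Genes past 2-fold in the same direction in both pairs, over all classes, were few. The higher ones were Nup160, Otub1, Ddias, Klf10, Pmaip1, Rbl1 and Gsdme. Pmaip1, the gene of the proapoptotic protein NOXA, read 4.27 and 6.20 in vivo and 6.52 and 7.92 in vitro (control, deleted). The lower ones were Aamdc, Ccpg1, Hoxd3os1, Mgp, Mmp23, Pdlim2 and Gm15417. The in vivo control signals of Pmaip1 (4.27) and Gsdme (4.32) were under 5.31. So were the in vivo deleted signals of Hoxd3os1 (4.52), Gm15417 (4.76) and Ccpg1 (5.28). Second probe sets of Ddias, Gsdme and Hoxd3os1 differed the other way in vivo, by -0.15, -0.51 and 0.29. That of Otub1 was at 0.06 in vivo and -0.65 in vitro. Those of Ccpg1 and Mmp23 were at -0.23 and -0.54 in vitro, short of 2-fold. Genes past 2-fold in opposite directions were Aspn, Krt14, Krt17, Krt5, Mmp3, Saa3, Slfn5 and Tnnc2. Among the keratins, Krt14, Krt5 and Krt17 were thus higher in the deleted in vivo array and lower in the deleted culture, whereas Krt6a, Krt6b and Krt16 were at 0.29, 0.10 and 0.20 in culture.

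**Figure D5:**
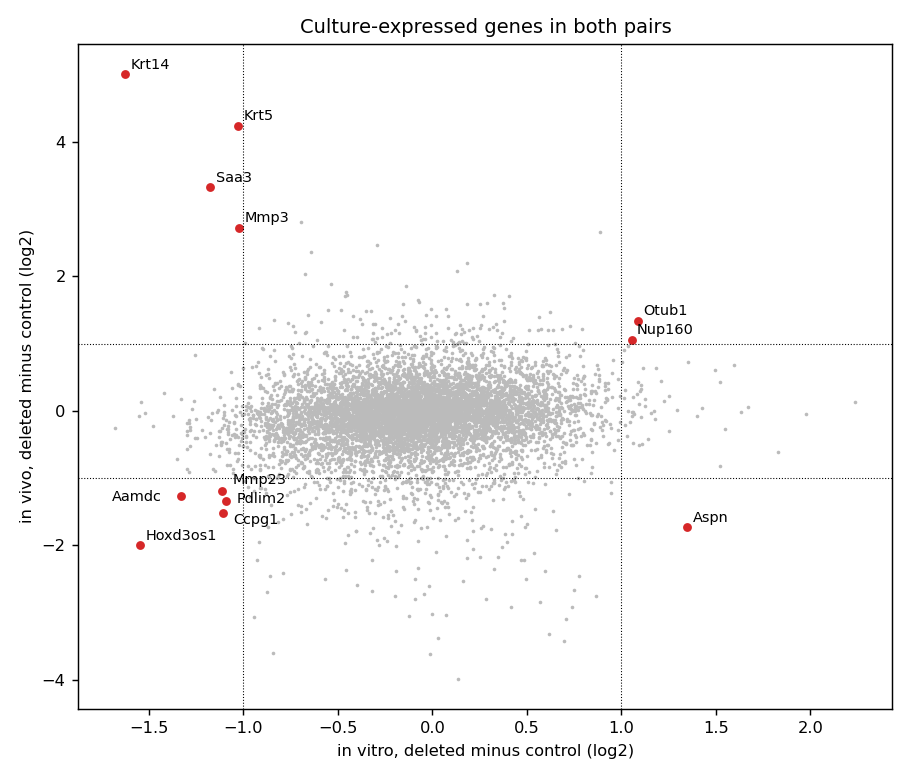
Difference between deleted and control array for each culture-expressed gene in the in vitro pair (horizontal axis) and the in vivo pair (vertical axis), on the log2 scale; dotted lines mark 2-fold and red points the genes past 2-fold in both. Of the 12 red points, 2 are higher in both, 5 lower in both and 5 in opposite quadrants, with Krt14 furthest up on the left.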

How the data were processed

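Log2 expression values of 45101 Affymetrix probe sets on 4 mouse arrays were used as the authors deposited them. Their range gave the log2 scale; no source used here gives software or normalization. The labels' protocols prime poly(A) RNA with T7 oligo(dT), so signal depends on RNA integrity and distance from the 3' end. The columns were quantile normalized over the 4 arrays. The platform annotation gave 34958 probe sets 1 symbol and 932 several, and the other 9211 were unnamed here; 34754 of the single-symbol probe sets matched RefSeq (GRCm38.p6) and took its symbol. Control probe sets were left out. A gene took its brightest probe set by mean over the arrays. No test was possible with 1 array per group; a 2-fold threshold was used, and the SD between probe sets of a gene (0.28 over 4402 genes) served as the tolerance for a moved value. The 43 gene lists and the members were chosen with earlier results of these data known, and so were the alternatives; the motifs were chosen after values were seen. Lists were described over all measured members (888 of 955 entries). Genes were named by rule: Rbpj; the 12 per direction with the largest difference among culture-expressed and the 8 among culture-low genes past 2-fold, with all probe sets that reached the level filter sharing a sign and uninformative symbols skipped; up to 4 members per list with the largest difference and the first 2 of each list; and genes past 2-fold in both pairs. Other list members in the text were named after their values were seen. The procedure was tested on simulated data with changes larger than the threshold set into bright genes. That checks the code and not the reliability of the differences reported here. Analysis used Python 3.11.15 with numpy 2.4.6, pandas 2.3.3, statsmodels 0.14.6 and matplotlib 3.10.9. Alternatives are given in the closing section.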

Additional observations from a re-analysis of the deposited data

Results flagged for a closer look

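There were 8 genes at least 2-fold different in both pairs but in opposite directions, on 1 array per group, and the difference between the pairs was not tested. Krt14 was at 5.00 in vivo and -1.62 in vitro, Krt5 at 4.24 and -1.03, and Krt17 at 4.09 and -1.30. Saa3 was at 3.32 and -1.18 and Mmp3 at 2.73 and -1.02. Aspn, a small leucine-rich proteoglycan, went the other way, at -1.73 in vivo and 1.35 in vitro. Tnnc2, a fast skeletal troponin, was at 2.37 and -1.01, and Slfn5, of the Schlafen family, at -1.92 and 1.39. The in vivo control signals of Krt17 (4.71) and Mmp3 (4.94) and the deleted signal of Slfn5 (4.29) were under 5.31, and probe sets of Slfn5 ranged from -1.92 to 0.27 in vivo.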

How the results depend on the processing

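No paired analysis was possible because each group had 1 array and no replicate number, and for the same reason no replicate could be left out. Of 1817 values of 260 named genes under the alternatives, 1688 stayed within the tolerance, 128 moved and 1 reversed (Lyz1, to 0.065 without _x_at and _s_at probe sets); the 266 values of 38 other list medians all stayed. For the counts and the 5 main lists, 78 of 105 values stayed. Values as deposited, quantile normalization of the in vivo pair alone, loess, and centring moved none of these, although the share of higher genes among culture-expressed genes past 2-fold went from 29.1% to 27.8%, 29.6% and 35.1% with deposited values, loess and centring and to 37.4% with the median of all probe sets, which also put the muscle median at 0.86. With the 20th percentile of linear values added, culture-low lower genes numbered 3 and the keratinocyte median was 0.53. Class cutoffs at the 70th and 30th percentiles gave 74 culture-expressed higher, 15 culture-low higher and 3 culture-low lower genes, and both at the 50th gave 218, 103 and 24. A level filter at the 60th percentile left 1 higher and 1 lower culture-low gene. A 1.5-fold threshold gave 482 higher and 901 lower culture-expressed and 76 and 24 culture-low genes, and a 3-fold threshold 24, 94, 24 and 2. Over members passing the level filter the keratinocyte median was 2.78 and the muscle median 1.66. A marker dim in the control passes that filter only through the deleted array, so both medians are raised partly by the filter itself. List means were -0.66 for elastic fibre and 1.58 for keratinocyte genes. In alternatives chosen after seeing the data, classes from the in vitro deleted array gave 11 culture-low lower genes, classes from the in vivo control array 62 higher and 0 lower, and removal of keratinocyte, junction and muscle list members 27 culture-low higher genes. The cause of these moves was not tested beyond the construction of each setting. Dim signals limit the size of any fold.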
